A study of Homo sapiens with 8 samples.

Results

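The CD3 complex and the proteins that act next to it at the membrane are described here through 30 genes, chosen by symbol: 4 CD3 chains, 3 coreceptors, 6 accessory receptors, 5 kinases, 7 adaptors, 2 exchange factors, and a group of 3 with the phosphatases PTPRC and PTPN22 and the scaffold UBASH3A. All 30 were found among the 63677 genes of each count table, by 32 identifiers, because CD4 and PTPRC each have a second identifier, which held 0 counts. RNA was sequenced from MOLT-4 and DND-41, established human lines of T-cell acute lymphoblastic leukaemia. Each line was given 100 nM ACBI-1, or the solvent DMSO, for 24 h in RPMI-1640 medium with serum and antibiotics. ACBI-1 is a small molecule that directs SMARCA2, SMARCA4 and PBRM1, subunits of the SWI/SNF (BAF) chromatin remodelling complexes, to degradation. The 4 groups were MOLT-4 with DMSO, MOLT-4 with ACBI-1, DND-41 with DMSO and DND-41 with ACBI-1, with 2 libraries each, and the labels state no genetic change made in either line. Each line stands for a single leukaemia, and nothing in the labels says whether the 2 libraries of a group came from separate cultures, so the p-values speak for the spread of these libraries alone, which may be technical.

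The T-cell receptor has no enzyme of its own. Its antigen-binding chains pair with the CD3 chains, whose tails are phosphorylated by the Src-family kinases LCK and FYN when a coreceptor brings LCK to the receptor. ZAP70 then docks on the phosphorylated tails and phosphorylates the adaptors LAT and LCP2 (SLP-76), which gather VAV1, GRAP2 and other proteins and pass the signal to calcium, Ras and NF-kappaB. Leukaemic T cells express parts of this set according to the thymocyte stage at which they are arrested.

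Library totals ranged from 21308737 to 22067644 counts. In MOLT-4, libraries of the same treatment were close to each other, with a chi-square per degree of freedom over genes of 1.52 and 2.65, against 49.4 to 50.8 between treatments. DND-41 was different: libraries with the same number in their labels were close (5.09 and 5.49), whereas the 2 DMSO libraries differed from each other by 64.6 and the 2 ACBI-1 libraries by 68.3. In DND-41, therefore, the libraries parted by number and not by labelled treatment. The authors' deposited table for DND-41 equals a comparison of libraries numbered 2 with libraries numbered 1 in 100% of 27069 genes, to within 0.001 on the log2 scale, whereas the labelled treatments match it in 0.1515% of them. For MOLT-4 the deposited table equals the labelled comparison in 100% of 27777 genes. Which treatment each DND-41 library received cannot be settled from the files, so DND-41 is given below both as labelled and by number. TAL1, a factor of the T-lineage leukaemia lines, held 1226 to 2372 counts in the MOLT-4 libraries and 0 to 7 in DND-41, whereas TLX3 held 2831 to 5287 counts in DND-41 and 0 in MOLT-4. Markers of myeloid, erythroid and natural killer cells summed to at most 0.443 CPM in any library, where CPM is a gene's count relative to its library total, after TMM scaling (trimmed mean of M-values) of that total. The B-cell markers summed to 189 to 771 CPM in DND-41 and at most 5.17 CPM in MOLT-4. Those of stroma and epithelium summed to 0.803 to 23.0 CPM in the MOLT-4 ACBI-1 libraries and at most 1.47 CPM with DMSO.

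Because the members are followed along the path from the receptor inwards, a stretch before the start site is shown for 1 CD3 chain, 1 accessory receptor, both Src-family kinases, ZAP70, LAT and VAV1. These come from RefSeq (GRCh38.p14, not the hg19 build of the counts), where 22 of the 30 members matched 35 entries. Each window runs 5′ to 3′ on the gene's strand, from 250 to 51 bases before the annotated start, and only members whose GENCODE 29 start lies within 50 bases of the RefSeq start (12 members) were considered. For LCK, FYN, ZAP70 and LAT, which have several entries, the entry at that outermost start is shown. Capitals mark matches, on either strand, to an E-box (CAGNTG, read by basic helix-loop-helix factors such as TAL1 and E proteins), a GATA word (AGATAA), a RUNX word (TGTGGT) or an ETS word (GGAAGT); none of these matches overlaps another here.
CD3D, chr11:118342756-118342955, minus strand: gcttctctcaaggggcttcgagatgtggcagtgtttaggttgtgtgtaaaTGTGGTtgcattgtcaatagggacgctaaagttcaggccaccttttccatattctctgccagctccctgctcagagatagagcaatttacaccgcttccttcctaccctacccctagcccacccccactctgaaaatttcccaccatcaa
CD2, chr1:116754180-116754379, plus strand: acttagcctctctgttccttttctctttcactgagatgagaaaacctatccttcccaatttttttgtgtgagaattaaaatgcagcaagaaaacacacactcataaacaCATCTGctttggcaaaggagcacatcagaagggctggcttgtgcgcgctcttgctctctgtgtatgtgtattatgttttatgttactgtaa
LCK, chr1:32251015-32251214, plus strand: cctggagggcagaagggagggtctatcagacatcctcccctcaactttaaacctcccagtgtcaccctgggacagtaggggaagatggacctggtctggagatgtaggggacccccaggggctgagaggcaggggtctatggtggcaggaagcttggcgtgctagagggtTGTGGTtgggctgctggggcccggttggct
FYN, chr6:111873503-111873702, minus strand: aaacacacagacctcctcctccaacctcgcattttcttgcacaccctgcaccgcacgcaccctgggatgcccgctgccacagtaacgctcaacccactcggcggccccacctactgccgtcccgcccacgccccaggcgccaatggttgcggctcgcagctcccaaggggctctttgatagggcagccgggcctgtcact
ZAP70, chr2:97713326-97713525, plus strand: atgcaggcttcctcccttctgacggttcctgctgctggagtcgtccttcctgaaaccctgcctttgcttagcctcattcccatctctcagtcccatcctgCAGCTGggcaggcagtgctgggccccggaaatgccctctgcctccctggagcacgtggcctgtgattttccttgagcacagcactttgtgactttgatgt
LAT, chr16:28984553-28984752, plus strand: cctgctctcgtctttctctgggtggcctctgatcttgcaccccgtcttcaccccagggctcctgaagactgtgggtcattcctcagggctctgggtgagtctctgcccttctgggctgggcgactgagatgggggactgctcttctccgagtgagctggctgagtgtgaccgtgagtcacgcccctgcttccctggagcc
VAV1, chr19:6772458-6772657, plus strand: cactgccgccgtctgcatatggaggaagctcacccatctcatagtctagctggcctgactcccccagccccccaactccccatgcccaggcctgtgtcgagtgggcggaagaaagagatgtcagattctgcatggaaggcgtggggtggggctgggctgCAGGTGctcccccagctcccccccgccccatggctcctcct

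CD3D and LCK each hold the RUNX word, CD2, ZAP70 and VAV1 each hold an E-box, and FYN and LAT hold none of the 4 words in these windows. Over all 35 member entries, 14 held the E-box (40.0%, against 36.53% of 35116 promoters of the same length), 7 the RUNX word (20.0% against 8.993%), 4 the ETS word (11.43% against 13.95%) and 0 the GATA word (against 7.618%). Several entries belong to 1 gene, and a match is a string of letters and not a measured binding site.

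In MOLT-4, treatment with ACBI-1 was compared with DMSO in edgeR's quasi-likelihood fit of the 4 libraries. Of the 30 members 29 passed the filter on low counts, and 20 of these were lower and 7 higher at an adjusted p below 0.05, while CD3E and PTPN22 were not called. Over all 14618 genes tested, 58.4% were called, 30.2% lower and 28.2% higher. The median log2 fold change was -0.71 for the members and 0.0087 for all genes. Libraries of the groups did not overlap for 7 higher and 20 lower members. The same held for 5724 higher and 5641 lower of the 14618 genes, so lack of overlap below is a trait of most genes. At least 2-fold changes were all decreases: 11 members were lower by that much and 0 higher, where 4.82% of all genes were lower and 6.02% higher by as much. The adaptors fell in 7 of 7 cases and the accessory receptors in 5 of 6, whereas the CD3 chains, coreceptors and kinases were split in direction. In RNA from bulk cultures, fewer cells that express a gene and less RNA per cell cannot be told apart.

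**Figure D1:**
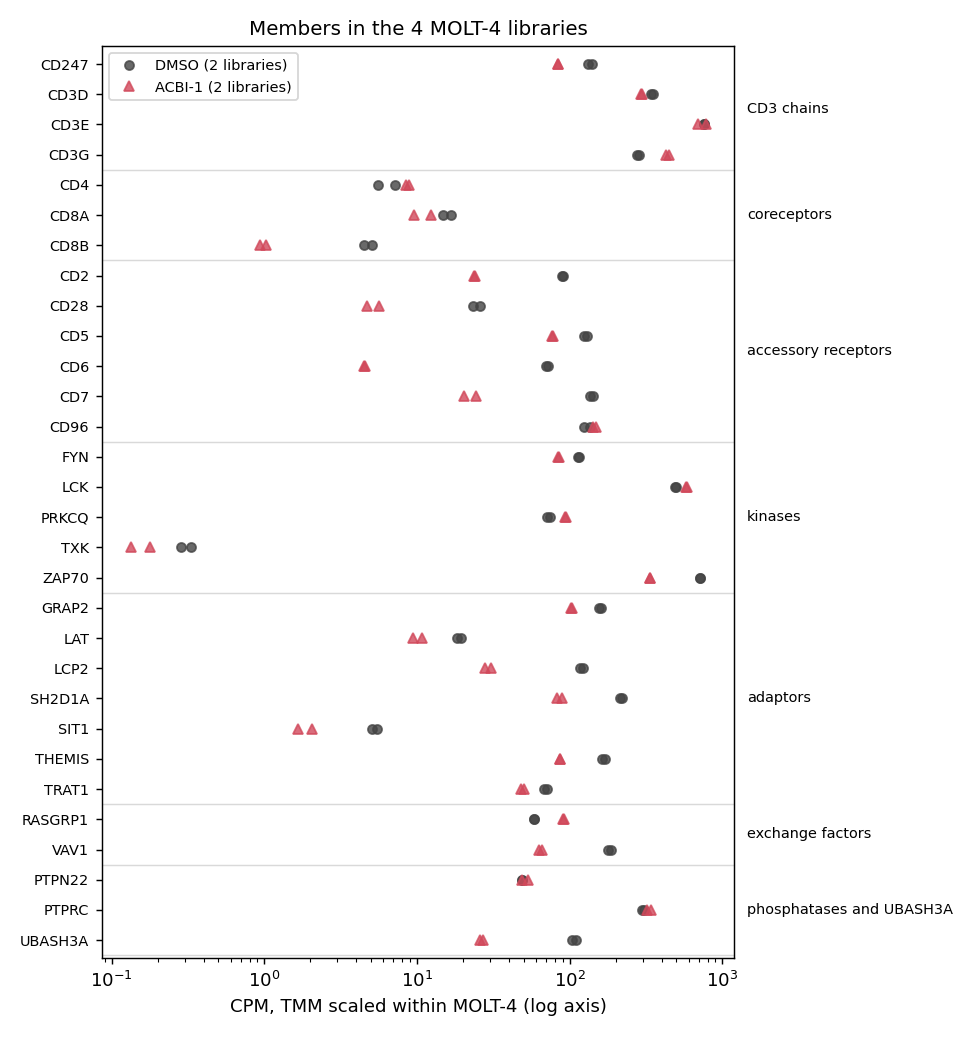
Each row is 1 of the 30 genes, ordered by role, and the log axis gives CPM after TMM scaling within MOLT-4; circles are the 2 DMSO libraries and triangles the 2 ACBI-1 libraries. For CD6, CD7, CD2, LCP2 and UBASH3A the triangles lie far left of the circles, for CD3G and RASGRP1 they lie to the right, and for CD3E and PTPN22 the libraries overlap.

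The 4 CD3 chains did not move together. CD3G, the gamma chain, was at 276 and 286 CPM in the DMSO libraries and 448 and 426 CPM in the ACBI-1 libraries. Both ACBI-1 libraries were above both DMSO libraries, and CD3G rose by 0.64 on the log2 scale (SE 0.036, edgeR adjusted p = 2.72e-19). CD247, the zeta chain, which carries most of the phosphorylation motifs of the receptor, was at 133 and 141 CPM with DMSO and at 83.4 and 83.5 CPM with ACBI-1. It fell by 0.71 on the log2 scale (SE 0.043, edgeR adjusted p = 2.76e-18) with no overlap between the groups. CD3D, the delta chain, was at 340.3 and 352 CPM with DMSO and 297 and 291 CPM with ACBI-1, a decrease of 0.23 (log2 fold change -0.23, SE 0.036, edgeR adjusted p = 2.81e-07). CD3E, the epsilon chain, was at 754 CPM in both DMSO libraries and at 775 and 694 CPM with ACBI-1. Its ACBI-1 libraries lay on either side of the DMSO values, and its log2 fold change was -0.037 (SE 0.038, edgeR adjusted p = 0.419). The value for CD3E depended on 1 library: it was -0.12 (adjusted p = 0.0143) without ACBI-1 replicate 1, 0.043 (adjusted p = 0.22) without ACBI-1 replicate 2, and 0.082 (adjusted p = 0.0432) when library totals replaced TMM scaling.

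The share of each chain in the summed CD3 transcripts shows the same divergence without any scaling between libraries. On a scale of CPM per kilobase of exon, CD3G made up 9.78% and 9.90% of the 4 chains in the MOLT-4 DMSO libraries and 16.0% and 16.1% in the ACBI-1 libraries. CD247 made up 4.46% and 4.63% with DMSO and 2.83% and 3.004% with ACBI-1. CD3D remained the most abundant chain per kilobase, at 49.7% and 50.3% with DMSO and 43.8% and 45.5% with ACBI-1. Without division by length, CD3E was above CD3D in each MOLT-4 library. CD3E, CD3D and CD3G are next to each other on chromosome 11 and were given log2 fold changes of -0.037, -0.23 and 0.64. Of those neighbours, CD3D is transcribed on the strand opposite to CD3E and CD3G.

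**Figure D2:**
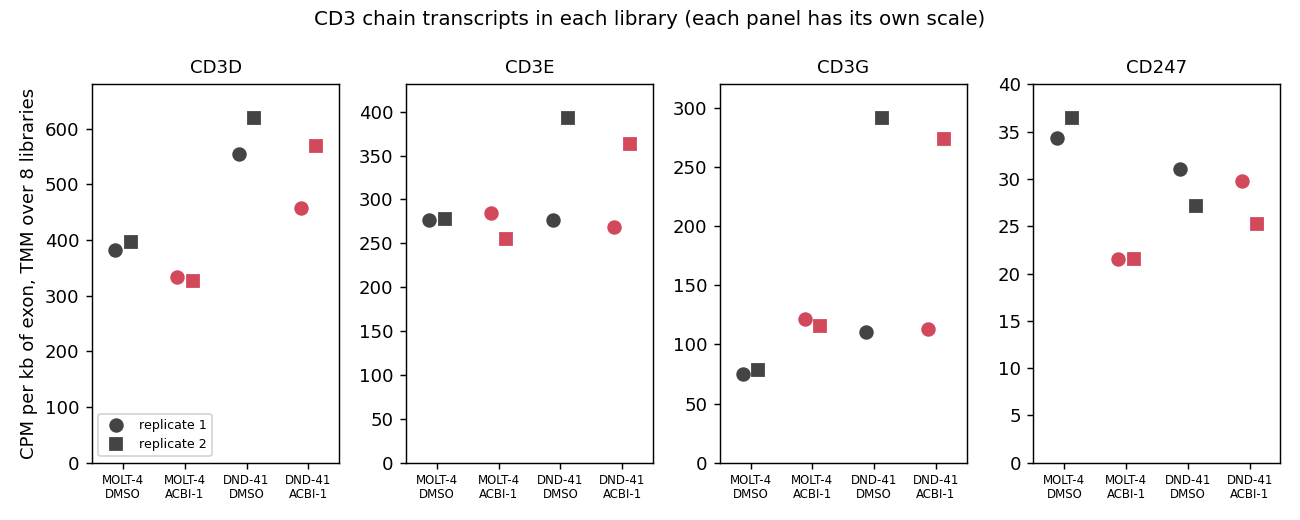
Points are single libraries, with circles for replicate 1 and squares for replicate 2, dark for DMSO and red for ACBI-1; the vertical axis is CPM per kilobase of exon after TMM scaling over the 8 libraries, starting at 0 with its own range in each panel. CD3G is higher in both MOLT-4 ACBI-1 libraries than in the MOLT-4 DMSO libraries, while in DND-41 CD3G and CD3E are higher in both libraries numbered 2, whichever treatment they are labelled with.

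Coreceptor transcripts were scarce in MOLT-4 and also split. CD8B, which pairs with CD8A in the CD8 coreceptor, was at 4.46 and 5.03 CPM with DMSO and 0.937 and 1.02 CPM with ACBI-1. It fell by 2.27 on the log2 scale (SE 0.22, edgeR adjusted p = 8.06e-12) without overlap. CD8A was at 14.8 and 16.7 CPM with DMSO and 9.59 and 12.3 CPM with ACBI-1, a change of -0.52 in log2 (SE 0.10, edgeR adjusted p = 2.48e-05). CD8A and CD8B are adjacent genes on the same strand of chromosome 2, and the smaller change was that of CD8A. Leaving out ACBI-1 replicate 1 put CD8A at -0.36 with an adjusted p of 0.0522. CD4, the coreceptor for class II antigen complexes, was at 5.51 and 7.12 CPM with DMSO and 8.79 and 8.42 CPM with ACBI-1. Its rise of 0.45 (SE 0.13, edgeR adjusted p = 0.00271) was lost without either ACBI-1 library (adjusted p = 0.109 and 0.0579), without DMSO replicate 1 (0.129) and in DESeq2 (0.128). A pseudogene on the strand opposite to CD8B, ANAPC1P1, held 31.2% as many counts as CD8B in MOLT-4, and since the sources used here do not give the strand setting of the counting, the 2 genes may not be fully separated.

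Accessory receptors, which bind ligands on other cells and tune the threshold of the receptor, held the largest decreases. CD6, a scavenger-receptor family protein bound to the receptor complex, was at 72.4 and 69.98 CPM with DMSO and 4.55 and 4.52 CPM with ACBI-1. CD6 fell by 3.97 (log2, SE 0.082, edgeR adjusted p = 1.6e-35), and CD7, an immunoglobulin-family glycoprotein used to mark T-lineage leukaemia, by 2.63 (SE 0.059, adjusted p = 3.27e-34). CD28, the main costimulatory receptor, was at 26.0 and 23.2 CPM with DMSO and 5.66 and 4.70 CPM with ACBI-1. The CD28 libraries did not overlap, and its log2 fold change was -2.25 (SE 0.10, edgeR adjusted p = 2.29e-22). CD2, the receptor for CD58, was at 89.1 and 90.4 CPM with DMSO and 23.9 and 23.4 CPM with ACBI-1. That was a change of -1.92 in log2 (SE 0.056, edgeR adjusted p = 6.96e-30), with libraries of each group nearly equal. CD5, a negative regulator of the receptor that lies beside CD6 on the same strand of chromosome 11, was at 129 and 124 CPM with DMSO and 76.8 and 77.6 CPM with ACBI-1. CD5 fell by 0.71 (SE 0.044, edgeR adjusted p = 2.83e-18), a smaller step than that of its neighbour CD6. CD96, a receptor of the nectin-binding family, was at 136 and 123 CPM with DMSO and 141 and 149 CPM with ACBI-1. The CD96 groups were close, its log2 fold change was 0.16 (SE 0.043, edgeR adjusted p = 0.00164), and the call was lost without ACBI-1 replicate 2 (adjusted p = 0.125), without DMSO replicate 2 (0.26) and in DESeq2 (0.0549).

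Among the kinases, LCK and PRKCQ rose while ZAP70 and FYN fell. LCK was at 493 and 492 CPM with DMSO and 578 and 583 CPM with ACBI-1, a change of 0.24 in log2 (SE 0.034, edgeR adjusted p = 1e-07). ZAP70 was at 711 and 713 CPM with DMSO and 335 and 336 CPM with ACBI-1. It fell by 1.09 (SE 0.035, edgeR adjusted p = 1.99e-28), and the replicates of each group were almost identical. FYN, the other Src-family kinase of T cells, was at 115 and 113 CPM with DMSO and 85.4 and 83.8 CPM with ACBI-1, a change of -0.43 in log2 (SE 0.044, edgeR adjusted p = 1.81e-11). PRKCQ, the protein kinase C theta that links the receptor to NF-kappaB, was at 74.5 and 71.2 CPM with DMSO and 92.6 and 94.9 CPM with ACBI-1. PRKCQ rose by 0.36 on the log2 scale (SE 0.046, edgeR adjusted p = 5.83e-09), and its groups did not overlap. TXK, a Tec-family kinase, did not pass the filter, with 7, 6, 4 and 3 counts in the 4 MOLT-4 libraries (DMSO first) and 0 in DND-41. The balance of the kinases therefore differed between the groups: per kilobase of exon, LCK was 9.52 and 9.68 times FYN with DMSO and 15.03 and 15.4 times with ACBI-1. ZAP70 was 0.942 and 0.946 times LCK with DMSO and 0.378 and 0.377 times with ACBI-1.

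Every one of the 7 adaptors fell in MOLT-4. LCP2, the scaffold that LAT recruits, fell by 2.04 (log2, SE 0.053, edgeR adjusted p = 1.17e-31). SIT1, a transmembrane adaptor that holds signalling down, was at 5.08 and 5.46 CPM with DMSO and 1.65 and 2.04 CPM with ACBI-1. SH2D1A (SAP), the adaptor of the SLAM receptors, was at 212 and 221 CPM with DMSO and 83.0 and 88.3 CPM with ACBI-1. Neither overlapped, with log2 fold changes of -1.51 (SE 0.19) and -1.34 (SE 0.042). THEMIS, which thymocytes need for positive selection, was at 163 and 169 CPM with DMSO and 86.2 and 86.3 CPM with ACBI-1, a change of -0.95 in log2 (SE 0.042, edgeR adjusted p = 3.02e-23). LAT was at 18.3 and 19.4 CPM with DMSO and 10.7 and 9.44 CPM with ACBI-1, a change of -0.91 in log2 (SE 0.094, edgeR adjusted p = 2.82e-11). GRAP2 (GADS), the bridge between LAT and LCP2, fell by 0.63 (SE 0.041, adjusted p = 1.73e-17), and TRAT1 (TRIM), an adaptor of the receptor complex itself, by 0.49 (SE 0.052, adjusted p = 5.32e-11). For LAT, the gene AC109460.3 overlaps it on the same strand over 2112 bases and held 16.4% as many counts in MOLT-4, so the count of LAT depends on how shared reads were assigned.

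The 2 exchange factors went opposite ways. VAV1, which LCP2 helps to bring to the receptor, was at 186 and 177 CPM with DMSO and 62.9 and 65.3 CPM with ACBI-1. RASGRP1, which activates Ras on receptor signalling, was at 57.9 and 58.5 CPM with DMSO and at 90.0 and 91.1 CPM with ACBI-1. VAV1 fell by 1.50 (log2, SE 0.044, edgeR adjusted p = 6.28e-30), and RASGRP1 rose by 0.64 (SE 0.048, adjusted p = 2.01e-15), each without overlap. UBASH3A, a protein that restrains ZAP70 signalling, fell by 2.01 (SE 0.055, edgeR adjusted p = 5.5e-31). PTPRC (CD45), the phosphatase that primes LCK, was at 304 and 299 CPM with DMSO and 320.4 and 342 CPM with ACBI-1, a change of 0.14 in log2 (SE 0.037, edgeR adjusted p = 0.00139), lost without DMSO replicate 2 (adjusted p = 0.0773). PTPN22, a phosphatase that acts against LCK and ZAP70, was at 49.0 and 48.9 CPM with DMSO and 48.7 and 53.5 CPM with ACBI-1. Its groups overlapped, and its log2 fold change was 0.062 (SE 0.056, edgeR adjusted p = 0.356).

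How firmly these calls stand depends on the estimate of spread. With 1 spread estimated from both lines, 6 of the 27 calls were kept, all decreases: CD2, CD28, CD247, CD8B, LCP2 and VAV1. CD6, CD7, ZAP70 and CD3G were among the 21 lost. That spread takes in the DND-41 groups as labelled. Their libraries differed by 64.6 and 68.3 in chi-square per degree of freedom, against 1.52 and 2.65 within the MOLT-4 groups. The share of all genes called in that fit is not given here, so the losses are not set against it. Under library totals, where the median of all genes moves by 0.119 and the calls over all genes become 5804 higher and 3031 lower in place of 4120 and 4413, 9 members were higher and 20 lower. One library stood out in markers of other cells: MOLT-4 ACBI-1 replicate 2 held 312 counts of COL1A1 and 207 of COL3A1, collagen genes of stromal cells, against 8 to 23 and 2 to 8 in the other 3 MOLT-4 libraries. Without it, a call or a sign changed for CD3E (0.043 on the log2 scale), CD4 (0.48), CD96 (0.12) and PTPN22 (-0.0053).

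Other genes of the pathway, 42 listed from textbook knowledge, fell more often than they rose in MOLT-4. Of 38 that passed the filter, 27 were lower, 5 higher and 6 not called, with a median log2 fold change of -0.52, and 9 were lower by at least 2-fold. Over all 14618 genes tested, 30.2% were lower and 28.2% higher, with a median of 0.0087. Lower by at least 2-fold were 4.82% of all genes. PTPRCAP, a protein bound to CD45, was at 164 ± 1.87 CPM (SD, n = 2) with DMSO and 20.8 ± 1.73 CPM with ACBI-1, a log2 fold change of -2.98. SLA, an adaptor that promotes loss of surface receptor, was at 71.0 ± 1.997 CPM with DMSO and 18.4 ± 0.165 CPM with ACBI-1 (-1.95). PDCD1, the inhibitory receptor PD-1, was at 22.3 ± 1.30 CPM with DMSO and 4.62 ± 0.713 CPM with ACBI-1 (-2.27), and WAS, an actin regulator, at 107 ± 4.39 and 52.1 ± 0.843 CPM (-1.04). The named increases were smaller: SLAMF6, a receptor that signals through SH2D1A, was at 29.7 ± 0.343 CPM with DMSO and 42.4 ± 2.63 CPM with ACBI-1 (0.51). SOS1, a Ras exchange factor, had a log2 fold change of 0.28, CBLB, a ubiquitin ligase, of 0.31, and PTPN2, a phosphatase, of 0.21. Without ACBI-1 replicate 1 or DMSO replicate 2 neither CBLB (adjusted p = 0.134 and 0.229) nor PTPN2 (0.0639 and 0.13) passed, and CBLB did not pass without ACBI-1 replicate 2 either (0.0949). With the spread shared between lines, 7 of the listed genes were called, and the share of all genes called in that fit is not given here.

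In DND-41 as labelled, 0 of 29 members tested were called, where 0% of 14602 genes were (0 members also had an unadjusted p below 0.05, against 37 genes of all, and 0 members were called by DESeq2). Libraries of one label differed widely, as their standard errors show: for CD7 the log2 fold change was -0.022 with an SE of 1.1, and for CD3G -0.040 with an SE of 0.66. CD7 was at 1281 CPM and 262 CPM in the 2 libraries labelled DMSO and at 1293 and 227 CPM in those labelled ACBI-1. In simulated data this comparison recovered 1.59% of 2-fold and 48.4% of 4-fold changes, so the 0 calls say little on 2-fold changes. With the replicate number as a block, 1349 genes (9.24%) and 2 members were called, both lower in libraries labelled ACBI-1. CD3D was at 538 and 598 CPM with DMSO and 439 and 559.8 CPM with ACBI-1 (numbers 1 and 2), a blocked log2 value of -0.19 (SE 0.044, edgeR adjusted p = 0.00126). CD4 was at 20.1 and 23.5 CPM with DMSO and 16.9 and 19.9 CPM with ACBI-1, a blocked value of -0.25 (SE 0.079, edgeR adjusted p = 0.0322). Within each number both genes were lower in the library labelled ACBI-1. The labelled groups overlapped for CD3D and did not for CD4. Without overlap were 0 higher and 2 lower members of 29, and 1265 higher and 1090 lower genes of 14602.

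Set by number, the DND-41 members differed widely. Of 29 tested, 8 were higher and 16 lower in the libraries numbered 2 than in those numbered 1, and 5 (CD2, CD4, CD8A, CD96 and LAT) were not called. With the labelled treatment as an added term, CD4 (log2 difference 0.23, edgeR adjusted p = 0.00844) and CD96 (0.13, adjusted p = 0.00431) passed as well, which made 26 members, 10 of them higher, with 62.9% of all genes called. CD4 (adjusted p = 0.0289) and CD96 (0.00963) also passed under library totals. Over all 14602 genes 51.1% were called, 25.4% higher and 25.7% lower. The median of the members was -0.28, against 0.022 for all genes. This is a difference between label numbers and cannot be read as a treatment from the labels. The authors' deposited table for the DND-41 line makes the same split under the name of the treatment; there, 7 members are higher, 15 lower and 7 not called, with 36.8% of all genes with an adjusted p called. CD79A, a B-cell receptor gene that DND-41 transcribes, also parted by number, at 689 and 737 CPM of the unscaled library total in libraries numbered 1 and 195 and 223 in those numbered 2, whereas MS4A1, another B-cell gene, was at 0. Its part in the member differences was not tested. Under library totals 10 members were higher and 14 lower by number, with 4779 genes higher and 2916 lower in place of 3704 and 3756.

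**Figure D3:**
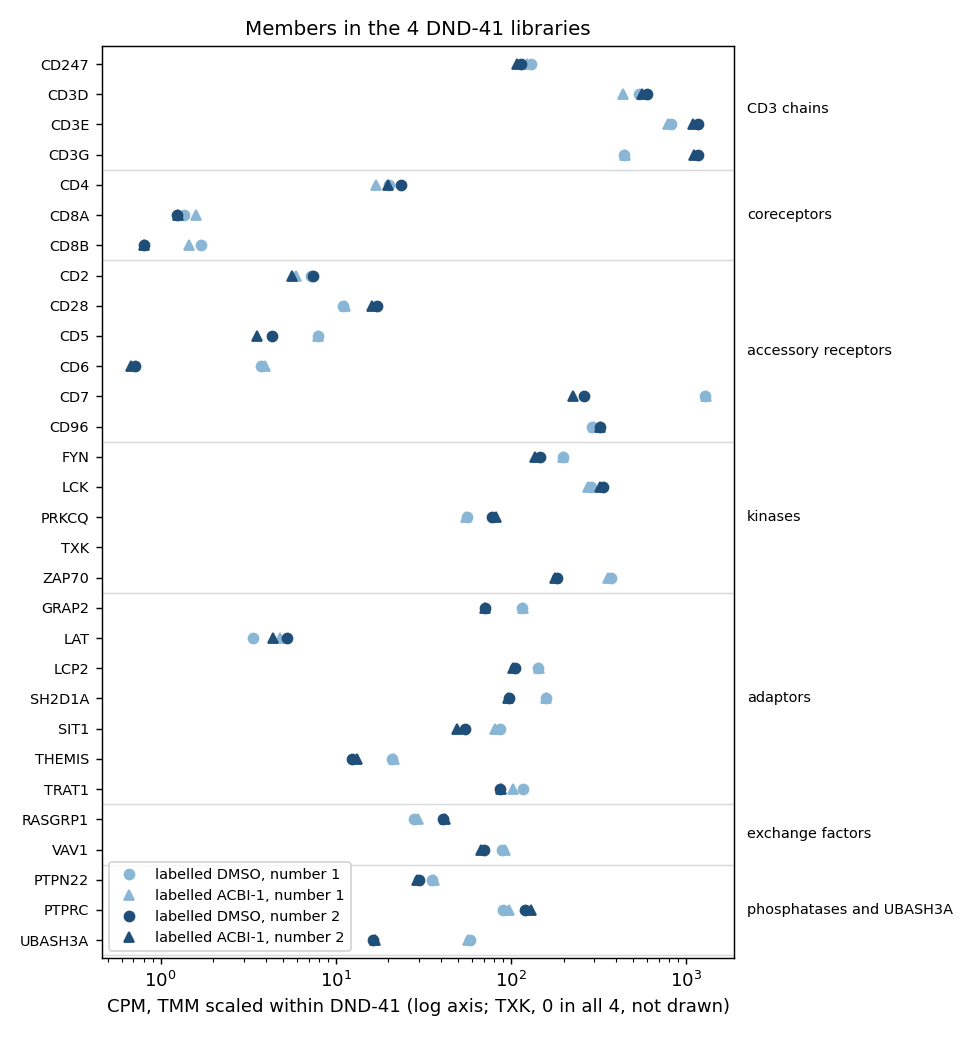
Rows are the genes ordered by role and the log axis gives CPM after TMM scaling within DND-41; circles are libraries labelled DMSO and triangles libraries labelled ACBI-1, pale for number 1 and dark for number 2. Points of the same shade lie together for CD7, CD3G, ZAP70 and UBASH3A, whichever shape they have.

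Within the CD3 complex, CD3G was at 442 and 448 CPM in the libraries numbered 1 and 1164 and 1114 CPM in those numbered 2, a log2 difference of 1.36 (SE 0.067, edgeR adjusted p = 1.75e-07). CD3E was at 821 and 789 CPM in number 1 and 1163 and 1096 CPM in number 2 (0.49, SE 0.069, adjusted p = 1.94e-04). CD3D was 0.25 higher (SE 0.092, adjusted p = 0.0459), and CD247 0.20 lower, at -0.20 (SE 0.068, adjusted p = 0.0303). CD3G thus made up 11.3% and 13.0% of the chains per kilobase in number 1 and 21.9% and 22.3% in number 2. The CD3D call was lost without the ACBI-1 library of number 1 (adjusted p = 0.429), the ACBI-1 library of number 2 (0.102) or the DMSO library of number 2 (0.303), and in DESeq2 (0.0659). That of CD247 was lost without the ACBI-1 library of number 2 (0.221), the DMSO library of number 1 (0.157) and under library totals (0.246).

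Receptors and signalling proteins parted by number as well. CD7 differed by -2.39 (log2, SE 0.082, edgeR adjusted p = 2.83e-08), CD6 by -2.46 (SE 0.24, adjusted p = 1.46e-05) and UBASH3A by -1.81 (SE 0.079, adjusted p = 9.06e-08). CD6 itself was scarce, at 3.76 and 3.93 CPM in number 1 and 0.711 and 0.674 CPM in number 2. CD5, at 7.91 and 7.90 CPM against 4.31 and 3.55 CPM, was also lower in number 2, by 1.01 (log2 difference -1.01, SE 0.15, adjusted p = 3.04e-04). ZAP70 was at 371 and 359 CPM in number 1 and 184 and 178 CPM in number 2 (-1.01, SE 0.065, adjusted p = 9.26e-07). All adaptors but LAT were lower, from TRAT1 at -0.33 to THEMIS at -0.73. LCK (0.22), PRKCQ (0.52), RASGRP1 (0.54) and PTPRC (0.42) were higher, and FYN (-0.48), VAV1 (-0.41), CD8B (-0.97) and PTPN22 (-0.28) lower. The call of LCK was lost without each one of the 4 libraries (adjusted p = 0.0504 to 0.186), and that of CD8B without all but the ACBI-1 library of number 1 (0.0532 to 0.123). PTPN22 was not called without the ACBI-1 library of number 2 (adjusted p = 0.0825), and CD4, which was not called, passed without the DMSO library of number 1 (log2 difference 0.35, adjusted p = 0.0319).

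**Figure D4:**
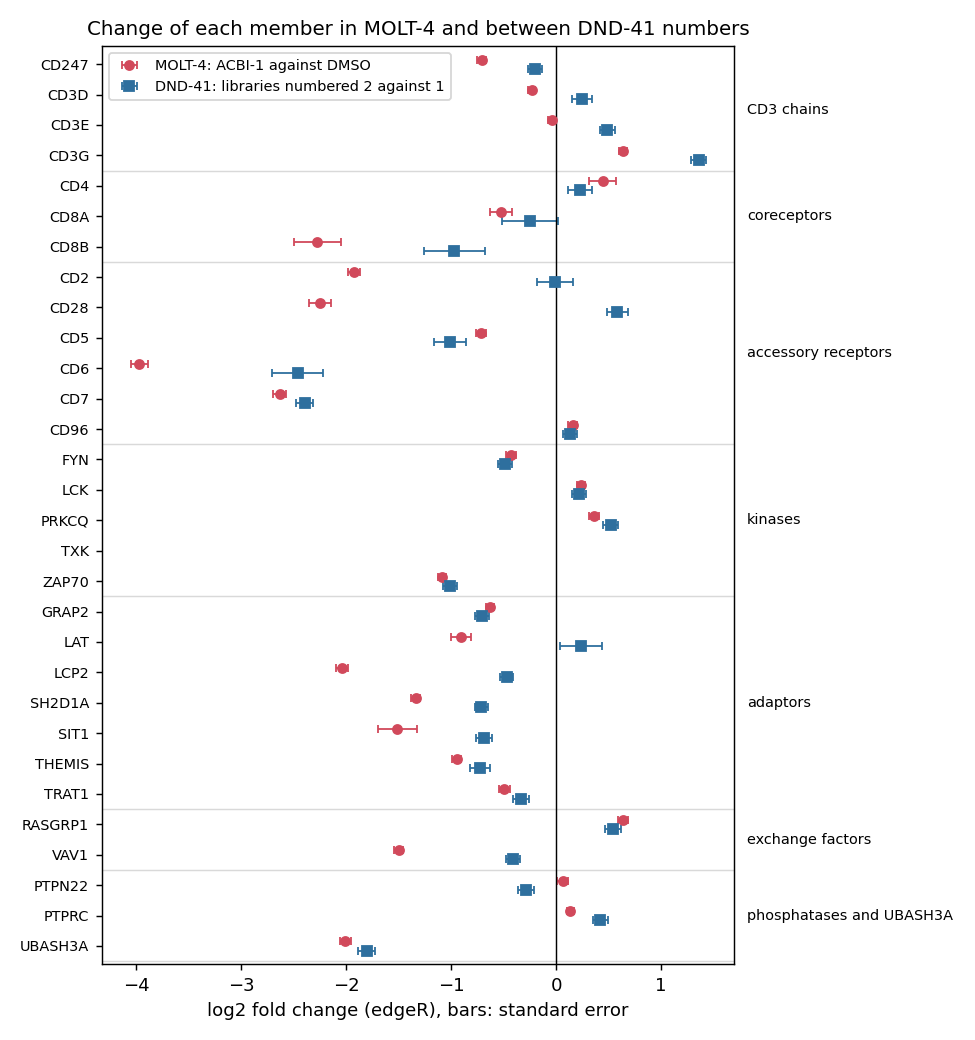
Points are edgeR log2 fold changes with their standard errors as bars, for MOLT-4 with ACBI-1 against DMSO (red circles) and for DND-41 libraries numbered 2 against 1 (blue squares); genes are ordered by role, and TXK was not tested. CD6, CD7, ZAP70 and UBASH3A lie left of 0 and CD3G, LCK, PRKCQ and RASGRP1 right of 0 in both. CD28, CD3D, CD3E, LAT and PTPN22 lie on opposite sides, and of these only CD28 and CD3D were called in both.

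Side by side, the MOLT-4 treatment comparison and the DND-41 number comparison share no library. Called in both were 22 members, which is 81.5% of those called in MOLT-4 and 91.7% of those called in DND-41, where over all genes tested in both the shares were 65.7% and 74.3%. Of the 22, 15 were lower in both, 5 higher in both (CD3G, LCK, PRKCQ, PTPRC and RASGRP1), and 2, CD3D and CD28, lower in MOLT-4 and higher in DND-41 number 2. Same-direction calls were thus 90.9% for members, and 92.6% of the 5150 genes called in both comparisons over all genes, so the members are near the share of all genes. CD28 shows the contrast most plainly: it was at 10.9 and 11.2 CPM in DND-41 number 1 and 17.1 and 16.2 CPM in number 2, a log2 difference of 0.58 (SE 0.10, edgeR adjusted p = 7.25e-04), while in MOLT-4 it changed by -2.25. CD2, which fell 1.92 in MOLT-4 (log2 fold change -1.92), was at 7.23 and 5.91 CPM in DND-41 libraries numbered 1 and 7.38 and 5.66 CPM in those numbered 2 (DMSO first), a difference by number of -0.011 (adjusted p = 0.963). LCP2 changed by -2.04 in MOLT-4 and by -0.47 in DND-41, and VAV1 by -1.50 and -0.41. Between these 2 comparisons the differences themselves were not tested.

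As a test of whether the labelled treatment acted differently in the 2 lines, the interaction of line and treatment was fitted over the 8 libraries. The fit takes the DND-41 labels as given, and which treatment each of those libraries received cannot be settled. If those labels are exchanged, it cannot answer the question. Without a block, it also counts the difference between DND-41 numbers as spread. One of 29 members was called, CD2, at -1.58 (SE 0.13, edgeR adjusted p = 0.0167), with 0.393% of 16047 genes called. CD2 changed by -1.92 in MOLT-4 and by -0.34 in DND-41 as labelled (SE 0.22, edgeR unadjusted p = 0.2005), where it was not called. Leaving out any of the 4 MOLT-4 libraries (adjusted p = 0.191 to 0.234) or DND-41 DMSO replicate 2 (0.0602) ended that call. LCP2 had an interaction of -2.04 (SE 0.30, adjusted p = 0.0687), CD28 of -2.21 (SE 0.38, adjusted p = 0.1), VAV1 of -1.51 (SE 0.27, adjusted p = 0.104) and CD6 of -4.02 (SE 1.19, adjusted p = 0.32). DESeq2 called 4 members (CD2, CD28, LCP2 and VAV1), and the share of all genes it called is not given here. With the replicate number as a block 23 members were called, 18 lower and 5 higher, among them CD6, CD7 and CD3G, and 36.5% of all genes were called in that fit. Without DND-41 ACBI-1 replicate 2, the interaction was -1.64 for CD2, -2.29 for LCP2 and -1.75 for VAV1.

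Between the groups labelled DMSO the lines differed in this set. The 2 DND-41 libraries of that label differed from each other by 64.6 in chi-square per degree of freedom. Which treatment each of them received cannot be settled. Of 29 members tested, 14 were higher in MOLT-4 DMSO than in DND-41 DMSO, 4 lower and 11 not called, against 20.1% higher and 19.4% lower (39.5% in all) of 16047 genes. The lines were counted in separate tables, so line and table cannot be told apart. By CPM per kilobase of exon, CD3D and CD3E had the highest mean levels of the set in both lines, at 389 ± 9.75 and 277 ± 0.353 (SD, n = 2) in MOLT-4 and 587 ± 45.2 and 335 ± 82.0 in DND-41. LCK (154 ± 0.0409) and ZAP70 (146 ± 0.572) came next in MOLT-4, followed by CD3G (76.6 ± 2.01) and SH2D1A (73.9 ± 2.36), which overlapped. In DND-41 CD7 (271 ± 252) and CD3G (201 ± 128) came next, with spreads so wide between the numbers that their place is not fixed; in DND-41 DMSO replicate 1, CD7 (449) was above CD3E (277). The lowest levels were those of TXK in both lines, of CD4 in MOLT-4 (1.44 ± 0.263) and of CD8A (0.345 ± 0.0225) and CD6 (0.36 ± 0.347) in DND-41, whose order is not fixed. These orders depend on the lengths, which join all annotated exons of a gene. By CPM, the MOLT-4 DMSO means were 754 for CD3E, 712 for ZAP70, 493 for LCK and 346 for CD3D.

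CD6 was 5.13 higher on the log2 scale in MOLT-4 than in DND-41 (SE 0.90, edgeR adjusted p = 0.00532), CD5 4.50 (SE 0.43), CD2 3.74 (SE 0.10), CD8A 3.71 (SE 0.23) and THEMIS 3.43 (SE 0.32). LAT was 2.25 higher (SE 0.23, edgeR adjusted p = 6.74e-04), though its overlapping neighbour held 44.5% as many counts as LAT in DND-41, and ANAPC1P1 76.2% as many as CD8B there. PTPRC was 1.64 higher (SE 0.18), ZAP70 1.48 (SE 0.41) and VAV1 1.31 (SE 0.19). SIT1 was lower in MOLT-4, at -3.63 (SE 0.34, edgeR adjusted p = 4.45e-04), as were CD4 at -1.66 (SE 0.18), CD96 at -1.11 (SE 0.10) and CD3D at -0.59 (SE 0.12). CD3E (-0.27, SE 0.20, adjusted p = 0.322) and LCP2 (0.075, SE 0.21, adjusted p = 0.793) were not called. With the replicate number as a block GRAP2, SH2D1A and UBASH3A were also higher and TRAT1 also lower (adjusted p = 0.0167 to 0.0447), 22 members in all. The call of ZAP70 was lost without DND-41 DMSO replicate 2 (adjusted p = 0.104) and without each of the MOLT-4 libraries (0.0645 to 0.112), and that of CD3D without either MOLT-4 DMSO library (0.0812 and 0.0665). Library totals moved the median by -0.177 and gave 2552 genes higher and 4007 lower in place of 3227 and 3108. Under them 12 members were higher and 6 lower. CD28 (0.74, edgeR adjusted p = 0.0942) and RASGRP1 (0.69, 0.0785) lost their calls there, while FYN and TRAT1 became called. With all 4 libraries of each line, VAV1 (0.74, edgeR adjusted p = 0.131), CD28 (0.22, 0.758) and CD8B (1.38, 0.0875) were not called. CD3G, CD7, FYN and TRAT1 became called in that fit. PTPN22 lost its call only on leaving out a library.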

How the data were processed

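RNA-seq libraries of 2 lines (4 groups of 2, 21308737 to 22067644 counts each) were processed with STAR 2.5.2a on hg19, featureCounts and DESeq2 1.12.4, per the submitters' processing notes; the strand setting, annotation release and treatment of multiply mapped reads are not given in the sources used here. The libraries were strand-specific and paired-end, per the labels. Raw counts for each Ensembl gene were deposited by the authors, in 1 table a line. They also deposited, per line, a table with log2 fold changes and standard errors. In the same deposited tables stand p-values and adjusted p-values, a Wald score, and a mean signal (counts over size factors). The MOLT-4 columns carry the suffix "redo" per the file headers, with no explanation there.

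Counts were tested in R 4.3.3 by the 2-sided quasi-likelihood F-test of edgeR 4.0.16 (TMM scaling, filterByExpr with a minimum count of 10), on the whole table, with Benjamini-Hochberg adjustment over all genes tested and a threshold of 0.05; a gene past it is named as called. The interaction and the comparison of lines used 1 fit of 8 libraries. CPM use TMM totals within a line; levels per kilobase use TMM over 8 libraries and GENCODE 29 exon lengths. The fits were checked on simulated data. There, 83.3% of 2-fold changes were recovered in the MOLT-4 comparison and 78.8% between DND-41 numbers. Between lines 23.9% of them were recovered, and in DND-41 as labelled 1.59%. Of 1.5-fold changes, 0% were recovered in the last 2 comparisons. False calls numbered 7 in the MOLT-4 comparison, 13 between DND-41 numbers, 6 between lines and 6 in DND-41 as labelled. Library pairs were compared by chi-square over genes; none agreed to within sampling noise. The members and all lists were chosen with earlier results of these data known. All members are named, and of the other pathway genes up to 4 per direction with the smallest adjusted p. Alternatives were RLE scaling, library totals, no filter, DESeq2 1.42.0, a replicate block, a shared spread and leaving out each library, which leaves a group with 1 library that is assumed to vary like the other group.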

Additional observations from a re-analysis of the deposited data

Results flagged for a closer look

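CD2 had an interaction of line and treatment of -1.58 on the log2 scale, past the threshold in a test of the difference between the lines itself (edgeR adjusted p = 0.0167). It was at 89.1 and 90.4 CPM with DMSO and 23.9 and 23.4 CPM with ACBI-1 in MOLT-4, and at 7.23 and 7.38 CPM against 5.91 and 5.66 CPM in DND-41 as labelled. The difference between the labelled DND-41 groups was not called. In DND-41 24 of 29 members differed by label number, and CD2 was among the 5 not called there. The interaction call takes the DND-41 labels as given. That call was lost on leaving out any single MOLT-4 library, or DND-41 DMSO replicate 2. With the replicate number as a block other members passed too, among them CD6, CD7 and CD3G. With 2 libraries a group, no test for a single library far from its group was run.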

How the results depend on the processing

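The replicate number as a block left the 27 member calls in MOLT-4 and the 32 calls among other pathway genes as they were. It gave 2 calls in place of 0 in DND-41 as labelled, 23 in place of 1 for the interaction, and 22 in place of 18 between lines (45.1% of all genes), where GRAP2, SH2D1A, TRAT1 and UBASH3A were added. Deviations of same-numbered libraries from their group means correlated at 0.00928 in MOLT-4 and 0.849 in DND-41, over 2 pairs each. Same-numbered libraries thus deviated together in DND-41 and not in MOLT-4. The labels do not call the numbers a pairing, so the fits reported carry no block and the blocked counts are given beside them. In DND-41 the fits without a block count that shared deviation as spread.

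With the spread shared between lines, 6 members and 7 other pathway genes were called in MOLT-4, with no share over all genes given here for that fit. For the interaction, library totals gave 2 members and DESeq2 4, and leaving out a library 0 to 3. Leaving out a library gave 25 to 26 members in MOLT-4, 12 to 24 between lines, 19 to 22 between DND-41 numbers and 26 to 28 other pathway genes. Signs turned only in values that were not called in the fit reported. In MOLT-4, CD3E was 0.082 under library totals, where it passed, and -0.12 to 0.043 on leaving out a library, and PTPN22 was -0.0053 to 0.13 on leaving out a library. By DND-41 number, CD2 was 0.091 under library totals and -0.24 to 0.17 on leaving out a library, and LAT -0.0028 to 0.51. Between lines, CD3E was -0.50 to 0.0014, and LCP2 -0.095 under library totals, -0.62 with all 4 libraries of each line and -0.13 to 0.32 on leaving out a library. The cause was not tested. DESeq2 did not call CD4 and CD96 in MOLT-4, and without the filter on low counts CD4, CD8A, CD96 and PTPRC were not called. In DND-41 as labelled, 0 members were called under every other alternative run. TXK, with at most 7 counts in a library, did not pass the filter on low counts at this depth.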
